A study of Mus musculus with 24 samples.

Results

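The normal fibroblast profile of the mouse colon was read from 7 arrays of wild-type (WT) samples, out of 24 arrays in the series. They are the arrays whose genotype label is Villincre-ERT2-ZsGreen-IhhWT-ApcWT: the mice carried ZsGreen and an inducible Cre driven by Villin regulatory DNA, which works in epithelial cells of the gut, with Ihh and Apc intact. The remaining arrays came from mice with the same Cre and a knockout of Apc (ApcKO, 8 arrays) or of both Ihh and Apc (IhhKO_ApcKO, 9 arrays). Cells were sorted as negative for the epithelial protein Epcam, the leukocyte protein CD45 and the endothelial protein CD31, and positive for gp38, which is podoplanin (gene Pdpn). Each array was made from 2 ng of amplified RNA. The sources used here do not state age, sex or the schedule of induction, and the labels do not say that each array is a separate mouse, so every spread and p-value below refers to these samples.

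Colon fibroblasts lie under and around the epithelial crypts. They build the collagen-rich matrix and the basement membrane, supply Wnt, R-spondin, BMP and BMP antagonist signals to the epithelium, and answer to Hedgehog protein that the epithelium secretes. Cells near the crypt tops are known for BMP ligands and high Pdgfra, and CD34-positive cells near the crypt base for R-spondins and the BMP antagonist Grem1.

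Values are log2 levels on the RMA scale, in which a step of 1 is a doubling of signal. Array medians lay between 4.98 and 5.14, the median gene was at 5.62, and every pair of arrays correlated across genes between r = 0.988 and r = 0.994, which describes likeness and is not a test. A gene was placed by its mean over 7 arrays among 30748 genes. The brightest 10% of genes began at 8.21. Probe sets bind with different strength, so this order ranks signals on the array and not amounts of RNA. Of the 5222 negative control probe sets, the median mean was 4.55 and the 95th percentile 8.10. Above that percentile lay 2060 of 19192 protein-coding genes (10.7%). The 23 antigenomic background probe sets were dimmer, the highest with a mean of 5.63. The kinds of control thus place background at different levels, and a level under 8.10 does not show that a gene was at background.

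The profile was that of fibroblasts. Of 14 general fibroblast markers measured, 12 were in the brightest 10%, where 9.56% of all protein-coding genes lay. Pdgfra was not analysed here, since its probe set carries more than 1 gene name. Dpt, which encodes the matrix protein dermatopontin, ran from 12.90 to 13.05 with a median of 12.94. Dcn, the collagen-binding proteoglycan decorin, ran from 12.43 to 12.54 with a median of 12.52. All 7 arrays were nearly level for both genes, with SDs of 0.05 and 0.04. Pdpn, the gene of the sorting marker, lay between 10.81 and 10.99 with a median of 10.89. Col1a1, a chain of type I collagen, lay between 10.53 and 11.23 with a median of 10.86, highest on array A3 and lowest on A6. Thy1 (7.72 ± 0.16, SD, n = 7) and Fap (7.44 ± 0.31, SD, n = 7), a surface glycoprotein and a membrane protease, were the 2 markers outside the brightest 10%.

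Markers of most other cell types were dimmer. The sort selected against epithelial, leukocyte and endothelial proteins, and used no protein of the other types below to remove them. Ptprc, which encodes CD45, lay between 2.88 and 3.03 with a median of 2.92, near the array medians of the 23 antigenomic background probe sets, from 2.68 to 2.90. None of 15 leukocyte markers was in the brightest 10%; the top ones were Coro1a, an actin regulator, at 6.02 ± 0.16 and Laptm5, a lysosomal protein, at 5.74 ± 0.19 (SD, n = 7). Pecam1, which encodes CD31, ranged from 5.29 to 6.28 with a median of 5.71. Of 11 blood endothelial markers only Tek, the angiopoietin receptor, was in the brightest 10%, at 8.64 ± 0.27, with Tie1 next at 5.98 ± 0.19 (SD, n = 7). No lymphatic endothelial, enteric glia, enteric neuron, interstitial cell of Cajal, mesothelial, pericyte or erythroid marker reached the brightest 10%; their highest members were Flt4 and Lyve1, Sox10 and Foxd3, Uchl1 and Tubb3, Gja1 and Kit, Wt1 and Upk3b, Rgs5 and Mcam, and Slc4a1 and Alas2, with means from 4.74 (Alas2) to 7.57 (Gja1). The contractile list did, with 4 of 12 members, led by Acta2, smooth muscle actin, at 9.44 ± 0.37 and Myl9, a myosin light chain, at 8.73 ± 0.28 (SD, n = 7). Myofibroblasts also express these contractile genes.

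**Figure D1:**
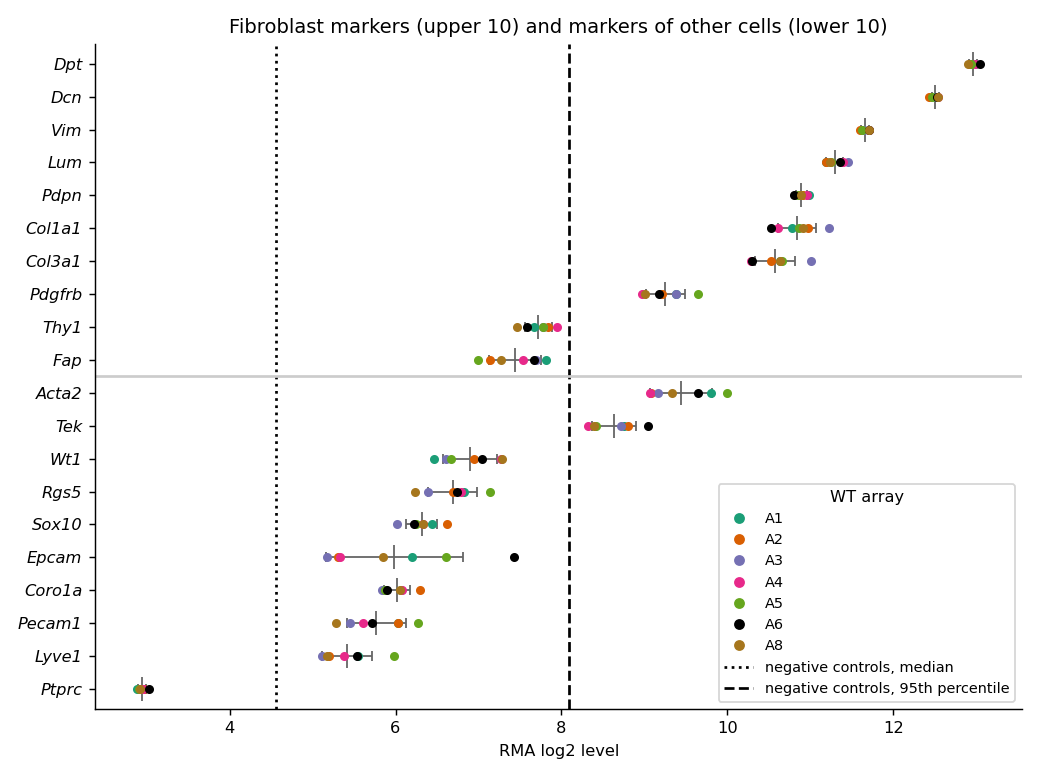
RMA log2 level of 10 fibroblast markers (above the grey line) and 10 markers of other cell types (below it) on each of the 7 WT arrays; coloured points are arrays, the grey tick and bar are the mean and SD, and the vertical lines are the median and 95th percentile of the negative control probe sets. Dpt, Dcn, Vim and Pdpn are tight and far to the right, Ptprc lies near 2.92 on every array, and Epcam spreads from 5.18 to 7.43.

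Among the sorting genes, Pecam1 had an SD of 0.356, and 6 of 11 blood endothelial markers were in the most variable 10% of genes. Epcam spread most of the sorting genes, with an SD of 0.825. It was at 5.18 on A3, 5.30 on A2, 5.32 on A4, 5.85 on A8, 6.20 on A1, 6.61 on A5 and 7.43 on A6. The arrays therefore differed in epithelial RNA, and what moved with it is described after the expressed programme.

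Many matrix genes were bright. Of 154 matrix genes measured, 74 were in the brightest 10%, and their median level was 8.13. Dpt, Dcn, Bgn and Fn1 were among the 15 brightest protein-coding genes of the array. Bgn, the proteoglycan biglycan, ran from 12.40 to 12.50 with a median of 12.46, and Fn1, fibronectin, from 12.14 to 12.33 with a median of 12.27. Sparc, a collagen-binding glycoprotein, stayed between 11.69 and 11.76 on all arrays and was among the 5 least variable genes of the brightest 5%. The other 4 were Rpsa, Cst3, Rpl9-ps6 and Gm10080, with SDs from 0.02 to 0.03.

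The matrix lists differed in how many members were bright. Glycoproteins and matricellular proteins had 19 of 28 in the brightest 10%, elastic fibre genes 10 of 14, small leucine-rich proteoglycans 8 of 13 and collagen-processing enzymes 10 of 17. Fibrillar collagens had 5 of 11: Col1a1, Col3a1 (10.58 ± 0.24), Col1a2 (10.41 ± 0.15), Col5a2 and Col5a1. Basement membrane genes had 8 of 22, led by Nid1, which links laminin to collagen IV, at 11.23 ± 0.15, then Hspg2, perlecan, at 10.40 ± 0.19 and Lamb1, a laminin chain, at 9.89 ± 0.13 (SD, n = 7). The laminin chains Lama3 (5.30) and Lamb3 (5.40), which are typical of epithelium, were low. Other collagens had 5 of 24, among them Col14a1 at 10.50 ± 0.23 and the type VI chains Col6a1 (9.49 ± 0.20) and Col6a2 (9.19 ± 0.18).

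Among elastic fibre genes, Ltbp4, which holds latent TGF-beta in the matrix, was at 11.37 ± 0.08, Fbln1 at 10.98 ± 0.13 and Mfap5 at 10.85 ± 0.14. The crosslinking enzyme Loxl1 was at 11.22 ± 0.11, the collagen hydroxylase subunit P4hb at 10.13 ± 0.20 and the lysyl hydroxylase Plod2 at 10.12 ± 0.16. Mmp2, a gelatin-degrading protease, was at 10.63 ± 0.16, and its inhibitors Timp2 and Timp3 were at 10.51 ± 0.06 and 10.22 ± 0.13 (all SD, n = 7). The median SD of the 154 matrix genes was 0.151, against 0.145 for all genes. In the most variable 10% of all genes, which began at an SD of 0.25, lay 22 of the 154, where 8.24% of protein-coding genes lay. Mmp3, stromelysin 1, was the widest of these, from 6.47 on A6 to 9.17 on A1 with a median of 8.14.

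**Figure D2:**
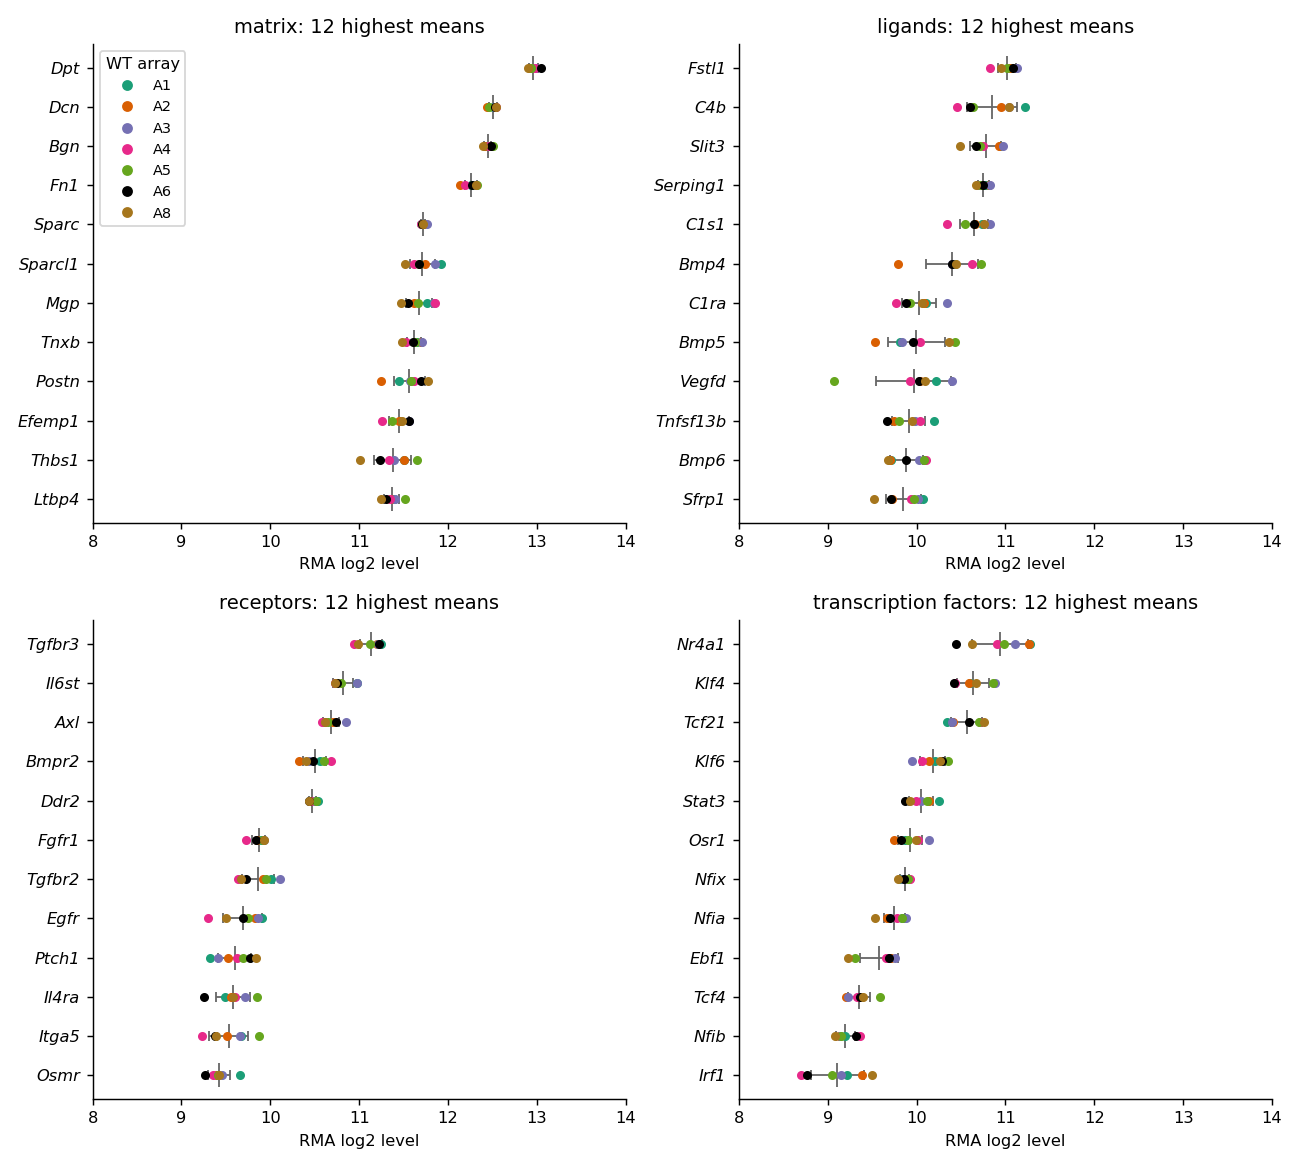
The 12 matrix genes, ligands, receptors and transcription factors with the highest mean RMA log2 level (x axis) over the 7 WT arrays; coloured points are arrays, the grey tick and bar the mean and SD. Matrix genes reach 12.96 (Dpt), ligands 11.02 (Fstl1), receptors 11.13 (Tgfbr3) and transcription factors 10.94 (Nr4a1); Bmp4 on A2 and Vegfd on A5 stand apart from the other arrays.

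Of 168 secreted signalling genes, 35 were in the brightest 10% and the median level was 6.48. BMP ligands and antagonists had 7 of 19 there. Fstl1, which encodes a follistatin-related secreted protein, was at 11.02 ± 0.10 (SD, n = 7). Bmp4, a BMP ligand, lay between 9.79 and 10.72 with a median of 10.43, lowest on A2. Bmp5, another ligand, lay between 9.53 and 10.43 with a median of 9.96, also lowest on A2. Grem1, a BMP antagonist, was at 9.24 ± 0.23, while the antagonist Nog was low at 5.38 ± 0.14 (SD, n = 7).

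Wnt ligands had a median of 5.74, against 6.08 for protein-coding genes, and 1 of 19 in the brightest 10%. This was Wnt2b, from 8.07 on A8 to 8.96 on A5 with a median of 8.61. Wnt4 followed at 7.98 ± 0.18 and Wnt5a at 6.61 ± 0.18 (SD, n = 7). Among R-spondins, which amplify Wnt signals at the receptor, Rspo3 was at 7.64 ± 0.31, Rspo1 at 7.22 ± 0.20 and Rspo2 at 4.29 ± 0.11. R-spondins and secreted Wnt inhibitors together had 2 of 15 in the brightest 10%, with a median of 6.16. The highest of the list were inhibitors: Sfrp1 at 9.85 ± 0.20, Dkk3, a relative of the Dickkopf inhibitors, at 9.05 ± 0.20 and Sfrp4 at 8.12 ± 0.61 (all SD, n = 7). Sfrp4 ranged from 7.13 on A5 to 9.01 on A3.

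TGF-beta and growth factor ligands had 2 of 9 and 5 of 28 members in the brightest 10%. Tgfb3 was at 9.53 ± 0.15, Tgfb2 at 8.96 ± 0.13 and Tgfb1 at 7.25 ± 0.22. Vegfd, a lymphatic growth factor, lay between 9.07 and 10.40 with a median of 10.04, and A5 alone was under 9.92. Hgf, hepatocyte growth factor, was at 8.90 ± 0.20, and Ereg, the EGF-family ligand epiregulin, at 8.82 ± 0.42 (SD, n = 7).

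Among immune mediators, 4 of 22 cytokines, 6 of 24 chemokines and 5 of 11 complement genes were in the brightest 10%. The B-cell survival factor Tnfsf13b was at 9.91 ± 0.18, the macrophage growth factor Csf1 at 9.49 ± 0.07 and Il6 at 8.95 ± 0.23. Ccl11, which attracts eosinophils, was at 9.68 ± 0.16. Ccl2, a monocyte attractant, lay between 8.82 and 9.93 with a median of 9.42, and Cxcl13, a B-cell attractant, between 8.02 and 9.59 with a median of 9.24. Array A5 was the low one for Cxcl13 and A6 for Ccl2. The complement components C4b (10.85 ± 0.28) and C1s1 (10.65 ± 0.16) and the complement inhibitor Serping1 (10.75 ± 0.06) were bright on all arrays (SD, n = 7). Guidance ligands had 3 of 21, Slit3 at 10.78 ± 0.18, Sema3c at 9.36 ± 0.16 and Ntn4 at 8.27 ± 0.09 (SD, n = 7).

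Receptors had 38 of 177 members in the brightest 10%, with a median of 6.89. For Hedgehog signalling, the receptor Ptch1, itself a pathway target, lay between 9.32 and 9.84 with a median of 9.63, lowest on A1 and highest on A8. The co-receptor Boc was at 9.20 ± 0.26, the ligand-binding inhibitor Hhip at 9.06 ± 0.38 and the effector Gli1 at 8.09 ± 0.08 (SD, n = 7). The ligand gene Ihh, which the epithelium makes, was at 6.40 ± 0.13 (SD, n = 7) in these sorted cells.

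TGF-beta and BMP receptors had 5 of 15 in the brightest 10%, with Tgfbr3 at 11.13 ± 0.12, Bmpr2 at 10.50 ± 0.13 and Tgfbr2 at 9.86 ± 0.18. Wnt receptors also had 5 (of 19), led by Ryk (9.17 ± 0.14), Ror1 (9.04 ± 0.12) and the co-receptor Lrp6 (8.73 ± 0.17). Receptor tyrosine kinases had 7 of 27, led by Axl, which binds Gas6, at 10.68 ± 0.09, the collagen receptor Ddr2 at 10.47 ± 0.04 and Fgfr1 at 9.87 ± 0.07 (all SD, n = 7). The kinase list had a median SD of 0.17, and 5 of its 27 members were in the most variable 10%.

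Cytokine receptors had 10 of 33, with the shared subunit Il6st at 10.82 ± 0.11, Il4ra at 9.58 ± 0.19 and the oncostatin M receptor Osmr at 9.43 ± 0.12. Integrins had 3 of 24: Itga5 (9.53 ± 0.22) and Itgb1 (9.22 ± 0.14), which together bind fibronectin, and Itgb5 (8.51 ± 0.11). Receptors of the Notch, neuropilin, plexin and Robo families had 4 of 16, with Notch2 at 8.54 ± 0.23, Nrp2 at 8.54 ± 0.27 and Robo1 at 8.50 ± 0.16. G-protein coupled receptors had 1 of 32, the thrombin receptor F2r at 8.70 ± 0.29. Calcrl and Ackr3 followed at 8.13 ± 0.26 and 8.07 ± 0.15 (all SD, n = 7). The median of this list was 6.37, against 6.08 for protein-coding genes.

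Transcription factors had 31 of 114 in the brightest 10%. Nr4a1, an orphan nuclear receptor induced within minutes of stimulation, lay between 10.44 and 11.27 with a median of 10.98, lowest on A6. Klf4 was at 10.64 ± 0.18 and Tcf21, a regulator of mesenchymal identity, at 10.56 ± 0.17. Foxf1, a Hedgehog-regulated factor of gut mesenchyme, was at 9.04 ± 0.16, and Foxl1, a factor of subepithelial cells, at 6.69 ± 0.19 (all SD, n = 7). Hox genes had 1 of 33, Hoxd10 at 8.72 ± 0.23; Hoxd13 and Hoxa11, also of posterior position, were next at 7.27 ± 0.31 and 7.14 ± 0.17 (SD, n = 7).

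Several brightest genes were neither matrix nor signalling genes. Hspa8, a constitutive heat-shock chaperone, was the brightest gene of the table and ran from 13.14 to 13.24 with a median of 13.21. Rpl41 and Eef1a1 serve translation and mitochondrial COX1 respiration, and Gm7429 and Gm6570 are predicted genes; ribosomal genes have near-identical copies whose signals a probe set may not separate. Plpp3, a lipid phosphatase, was at 12.45 ± 0.06, the lectin Lgals1 at 12.17 ± 0.08, and the membrane proteins Pmp22 and Itm2b at 12.06 ± 0.06 and 12.05 ± 0.07 (SD, n = 7).

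Immediate early genes, which are transcribed at once after a stimulus, had 15 of 22 members in the brightest 10%. Fosb lay between 12.30 and 12.46 with a median of 12.31, and was among the 15 brightest protein-coding genes. Dusp1 was at 11.75 ± 0.08, Fos at 11.67 ± 0.08 and Jun at 11.62 ± 0.10 (SD, n = 7). They were high on every array, and without a sample of unsorted tissue no baseline stood beside them. Within the list, Nr4a1, Gadd45b (10.42 ± 0.34) and the inducible chaperone Hspa1a (8.80 ± 0.36) varied most. Hypoxia and glycolysis genes varied less, with Hk2, Ndrg1 and P4ha1 at SDs of 0.29, 0.23 and 0.21. Of 18 cell cycle genes, 1, Pcna, was in the brightest 10%; Mki67, Rrm2 and Cdc20, the most variable, had means of 5.42, 5.23 and 5.85.

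The spread between arrays was small for most genes, with a median SD of 0.145 over all genes and 0.13 in the brightest 10%. Only 47 of 30748 genes, 31 of them protein-coding, had an SD over 1. Xist, the RNA that coats the inactive X chromosome, had the largest, 3.11. It was at 11.22 on A4, 11.14 on A3, 9.50 on A8, 7.15 on A1, 4.74 on A2, 4.41 on A6 and 4.38 on A5. The Y-linked genes Eif2s3y, Uty and Kdm5d were low on A3 and A4, with 3.90 to 4.25, and lay between 5.62 and 6.93 on the 5 other arrays. A1 and A8 thus had Xist above A2, A5 and A6 together with Y-linked signal. The labels give no sex, and Tsix, the antisense partner of Xist, ranged from 4.33 to 5.12.

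After Xist, the 15 widest protein-coding genes included 6 of the epithelial lists: Car1, Fabp2, Cyp2c55, Guca2a, Clca1 and Krt8. Car1, carbonic anhydrase 1 of colonocytes, was at 5.69 on A3, 6.94 on A2, 9.48 on A4, 10.11 on A8, 10.34 on A5, 11.21 on A1 and 11.48 on A6. The 5 others of these lists had SDs from 1.24 to 1.69, and Dmbt1, Lypd8, Gsdmc2, Tspan1, 1810065E05Rik and Sycn had SDs from 1.21 to 1.55.

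The remaining 3 of the 15 were Cyp2f2, Il1r2 and Sult1e1. Cyp2f2, a cytochrome P450, was at 5.53 on A3, 5.59 on A4, 6.99 on A5, 7.90 on A6, 8.42 on A8, 8.96 on A2 and 9.33 on A1. Sult1e1, an oestrogen sulfotransferase, was likewise lowest on A4 (2.99) and A3 (3.27) and between 4.31 and 6.32 on the other arrays. A3 and A4 are also the arrays with the lowest Y-linked signal; the part of sex in these values was not tested. Il1r2, the decoy receptor for interleukin 1, went another way, from 5.06 on A4 to 9.36 on A2 with a median of 7.36.

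**Figure D3:**
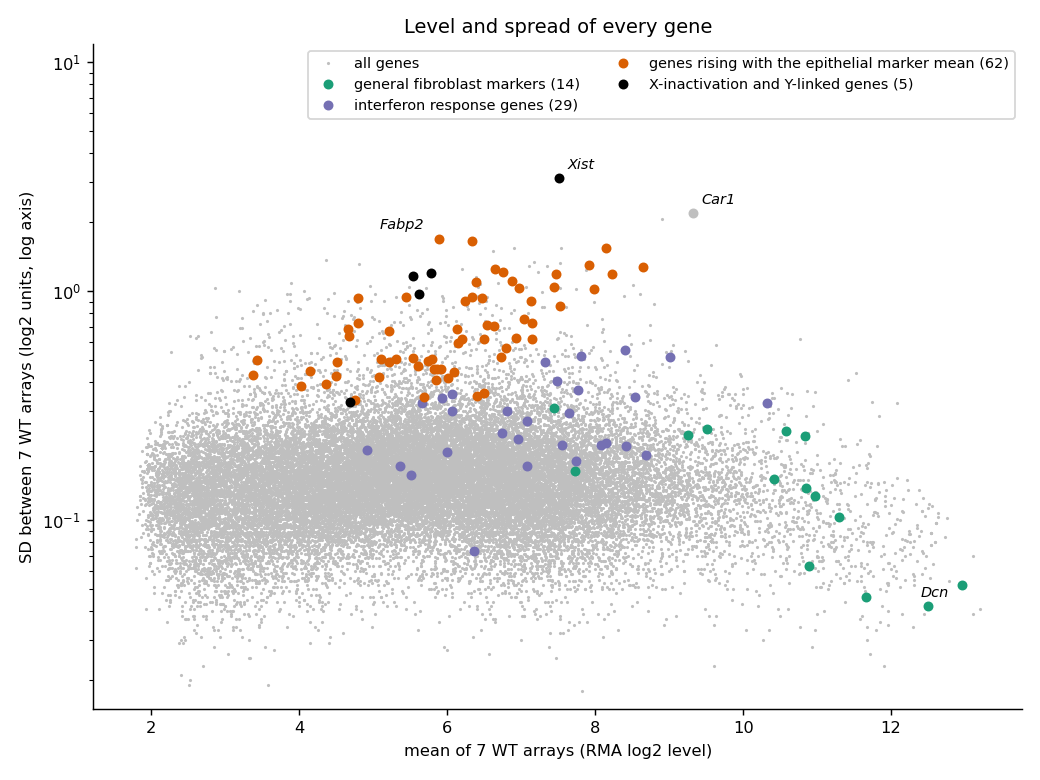
Mean RMA log2 level (x axis) against the SD between the 7 WT arrays (y axis, log scale) for 30748 genes in grey, with general fibroblast markers in green, interferon response genes in purple, the 62 genes that rose with the epithelial marker mean in orange and X-inactivation and Y-linked genes in black. Fibroblast markers sit low on the right (Dcn, SD 0.04), the orange genes lie along the upper edge, and Xist is at the top with an SD of 3.11.

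To describe what moved with epithelial RNA, the mean of 16 epithelial markers was taken on each array. It was 5.80 on A3, 6.08 on A4, 6.12 on A2, 6.31 on A8, 6.78 on A1, 6.85 on A5 and 7.33 on A6. The 17 other arrays covered 5.56 to 7.81, so the WT arrays lay within the range of the series. A slope of each gene on this mean was fitted with limma, in log2 units of the gene per log2 unit of the marker mean, and called at a Benjamini-Hochberg adjusted p under 0.05. The 16 markers make up the mean and are not counted as results; 9 of them, Krt8 among them, passed.

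Outside the markers, 62 genes rose with the marker mean, which is 0.202% of 30732 tested, and 0 fell (0.0%). At an unadjusted p under 0.05 the counts in limma were 671 higher and 527 lower, and the smallest adjusted p of a falling gene was 0.10. The slopes ran from 0.61 to 2.88 with a median of 1.12. All 62 were in the most variable 10%, which slopes this steep imply over the range of the marker mean. In the brightest 10% lay 2 of them. The count rested on a few arrays: it was 11 without A6, 24 without A3, 29 without A2 and 32 without A4, and 4 without A6 and A5 together, the arrays farthest from the median. In the 17 arrays from the other genotypes, fitted with a term for genotype, all 62 had a positive slope and 56 (90.3%) also passed, against 892 genes, or 2.9%, of all tested there. The same fit called 529 genes (1.72%) lower, where the WT fit called 0. That check was chosen after the WT data had been seen.

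The steepest included genes that colon epithelium is known to express. Dmbt1, a secreted mucosal defence glycoprotein, ran from 6.30 on A3 to 10.15 on A6 with a median of 7.80; its slope was 2.80 ± 0.24 (SE; limma adjusted p = 0.00093, n = 7). Fabp2, the intestinal fatty acid-binding protein, ran from 3.88 on A3 to 8.58 on A6 with a median of 5.63; its slope was 2.88 ± 0.41 (SE; limma adjusted p = 0.023, n = 7). Guca2a, guanylin, ran from 7.23 on A3 to 10.80 on A6 with a median of 8.57, with a slope of 2.19 ± 0.30 (SE; limma adjusted p = 0.018, n = 7). In each of them A3 was lowest and A6 highest, as in the marker mean itself. Dmbt1 kept its call under every alternative fitted. The calls of Fabp2 and Guca2a were lost in limma with trend and robust settings (adjusted p = 0.29 and 0.121), without A6 (0.578 and 0.54), without A3 (0.185 and 0.123) and without A2 (0.0709 and 0.0695). Guca2a also lost its call without A4 (adjusted p = 0.0625), and Fabp2 on Epcam alone (0.0722) and without A5 and A6 (0.0727), by limma. The other 7 of the 10 largest slopes were those of Cyp2c55 (2.76), a cytochrome P450; Lypd8 (2.28), which keeps bacteria off the colon surface; Tspan1 (2.20); the membrane mucin Muc3 (2.13); the adhesion molecule Ceacam1 (2.13); and the gasdermins Gsdmc2 (2.12) and Gsdmc3 (1.85). By limma, all 7 lost their call without A5 and A6 together. Cyp2c55 also lost it with median centring, the median of the markers, Epcam alone, or trend and robust settings. It did so too without A1, A2, A3, A4 or A6. Gsdmc2 and Gsdmc3 lost theirs with the median of the markers, with trend and robust settings, and without A1, A2, A5 or A6. Gsdmc2 also lost it without A4. Lypd8 lost it on Epcam alone, with trend and robust settings and without A6. Others that rose were Cdh17 and Cdhr5, cadherins of gut epithelium, and Pigr, which carries IgA across it. Esrp1, an epithelial splicing factor, and Hnf4g, an enterocyte nuclear receptor, also rose.

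By lineage, 6 of 20 absorptive colonocyte genes and 2 of 14 goblet cell genes (Muc2 and Agr2) rose. Of crypt stem, enteroendocrine and tuft cell genes, 0 of 11, 0 of 8 and 0 of 8 rose. As 0.202% of all 30732 genes tested rose, counts of 0 in lists this small are near that share. In these lists 2, 3 and 1 genes had means below the negative control median, which limits what could show. In the fit of the 17 other arrays, 23 of 61 epithelial lineage genes passed as higher and 0 as lower. Car1 had a slope of 3.42 ± 0.70 (SE) but a limma adjusted p of 0.15 over 7 arrays. In the 17 other arrays its slope was 2.32 ± 0.27 (SE), with a limma adjusted p of 2.68e-05. Clca1, a goblet cell secretion, was highest on A1 (8.33) and A3 (7.04) and had a slope of -0.09 ± 0.73 (SE; limma adjusted p = 1.0, n = 7). The mean of the goblet genes was accordingly highest on A1, at 7.12, whereas the mean of the colonocyte genes was highest on A6, at 7.59. Dpep1, Creb3l1 and Dclk1 are listed for epithelial lineages but were bright on all arrays (9.97 ± 0.31, 9.27 ± 0.16 and 8.50 ± 0.16, SD, n = 7), with slopes of 0.05, -0.002 and -0.04.

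In the WT fit no fibroblast gene passed in either direction. Of 39 fibroblast identity genes 0 were called, with 22 positive and 17 negative slopes. Also 0 were called among 154 matrix genes, 168 ligands, 177 receptors and 114 transcription factors. That fit called 0.202% of all 30732 genes tested higher and 0.0% lower, so counts of 0 in lists of this size are near that share. Dcn had a slope of 0.00 ± 0.08 and Pdpn of -0.04 ± 0.09, and the steepest of the 3 collagen markers was Col1a1 at -0.30 ± 0.13 (SE; limma adjusted p = 1.0 each, n = 7). Slopes were negative in 10 of 11 fibrillar collagens and 20 of 24 other collagens. Over all 154 matrix genes 94 were negative and 60 positive, where 10958 of 19192 protein-coding slopes were negative. Genes of a list can move together, so these signs are not independent. In the 17 other arrays, 3 of the 39 fibroblast identity genes passed as lower and 1 as higher. For matrix genes the counts lower and higher were 6 and 3, and for ligands 7 and 4. For receptors they were 20 and 12, and for transcription factors 7 and 2. Of all genes tested there, 1.72% passed as lower and 2.9% as higher. The 3 genes given next were picked from those that passed as lower. There Pdgfrb had a slope of -0.29 ± 0.08 (SE; limma adjusted p = 0.043), Wnt2b of -0.36 ± 0.08 (SE; limma adjusted p = 0.012) and Tgfbr2 of -0.27 ± 0.06 (SE; limma adjusted p = 0.0093); in the WT arrays their slopes were 0.12, 0.13 and -0.06 and did not pass. Whether the slopes differ between WT and the other arrays was not tested. In bulk samples a smaller share of fibroblasts and less RNA in each fibroblast cannot be told apart. The Y-linked gene Uty had a slope of 1.80 ± 0.38 and Xist one of -4.18 ± 1.26 (SE; limma adjusted p = 0.18 and 0.74, n = 7), and A3 and A4 are among the arrays lowest in epithelial markers. The part of sex in the 62 slopes was not tested.

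**Figure D4:**
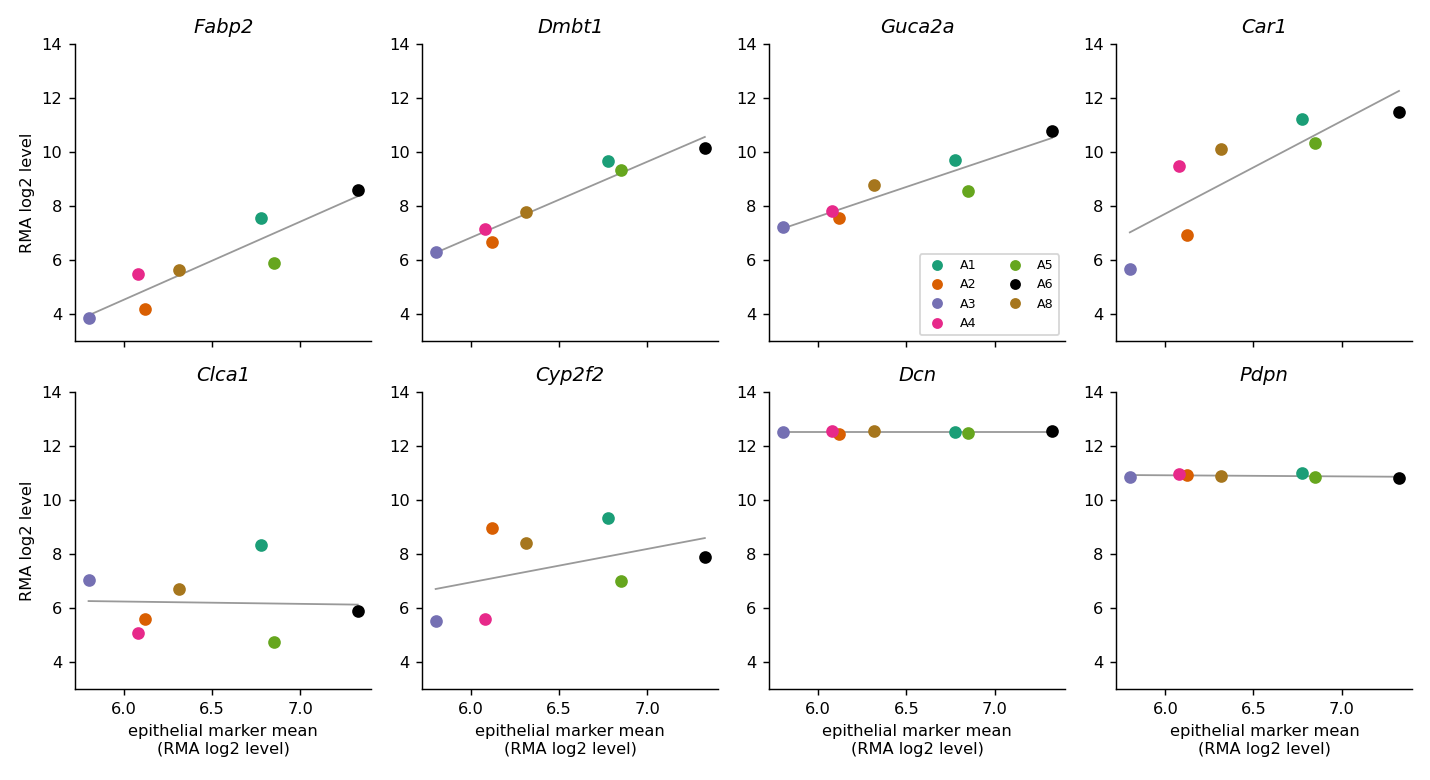
RMA log2 level of 8 genes (y axis) against the mean of the 16 epithelial markers (x axis, RMA log2 level) on the 7 WT arrays; points are arrays and the line is the fitted slope. Fabp2, Dmbt1 and Guca2a are lowest on A3 and highest on A6, Car1 rises with wide scatter, Clca1 and Cyp2f2 scatter without a called slope, and Dcn and Pdpn are flat.

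Promoters are shown for 3 of these genes because they moved together and carry letters that gut epithelial factors are known to bind. Each is the 250 bases before the gene's start in RefSeq GRCm38.p6, plus strand, 5′ to 3′. Capitals mark CAAAGTCCA or its reverse complement in Muc13, a membrane mucin (chr16:33794239-33794488), and Cyp2c65, a cytochrome P450 (chr19:39060756-39061005), and TTTATTG in Fabp2 (chr3:122894822-122895071).
Muc13: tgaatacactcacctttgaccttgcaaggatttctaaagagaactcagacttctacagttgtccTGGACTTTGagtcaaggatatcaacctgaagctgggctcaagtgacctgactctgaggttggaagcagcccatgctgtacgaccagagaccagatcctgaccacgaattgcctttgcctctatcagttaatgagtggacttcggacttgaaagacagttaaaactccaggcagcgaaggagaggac
Cyp2c65: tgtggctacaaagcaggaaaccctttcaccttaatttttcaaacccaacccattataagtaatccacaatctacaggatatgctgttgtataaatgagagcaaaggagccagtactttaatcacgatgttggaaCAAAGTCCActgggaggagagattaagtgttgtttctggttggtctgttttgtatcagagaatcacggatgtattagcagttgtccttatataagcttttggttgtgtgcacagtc
Fabp2: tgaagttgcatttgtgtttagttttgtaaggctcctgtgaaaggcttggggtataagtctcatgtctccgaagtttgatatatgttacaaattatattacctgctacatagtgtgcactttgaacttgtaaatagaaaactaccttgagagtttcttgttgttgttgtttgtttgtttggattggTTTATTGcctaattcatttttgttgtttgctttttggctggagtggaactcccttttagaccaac

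Windows of 300 bases, 250 before the start and 50 after, were searched on both strands, and 42 of the 58 protein-coding genes that rose had one. CAAAGTCCA, bound by hepatocyte nuclear factor 4, was in 3 of 42 (7.14%) and in 0.553% of 15560 measured protein-coding genes. TTTATTG, bound by caudal homeobox factors, was in 4 (9.52%) against 4.25%, and GTTAATNAT, bound by hepatocyte nuclear factor 1, in 1 (2.38%) against 0.842%. TGACTCA, the activator protein 1 letters, was in 10 (23.8%) against 5.46%, and AGATAA, bound by GATA factors, in 9 (21.4%) against 11.1%. The GC box GGGCGG was in 10 (23.8%) against 51.0%, and TATAAA in 8 (19.0%) against 14.5%. GAAANNGAA, the core letters of interferon-stimulated elements, was in 4 (9.52%) against 9.4%. These are counts of letters with no test, and a match is not a binding site.

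Other gene groups also varied between arrays. Of 29 interferon response genes, 15 were in the most variable 10%, against 8.24% of protein-coding genes. Gbp2, a guanylate-binding protein, lay between 8.36 on A6 and 9.75 on A1 with a median of 8.88. Iigp1, an interferon-induced GTPase, lay between 7.37 on A6 and 9.11 on A1 with a median of 8.54, and Gbp4 between 7.13 and 8.66, on the same arrays. The mean of the list was lowest on A6 (6.87) and highest on A1 (7.50). On the epithelial mean, 26 of 29 slopes were negative, with a median of -0.23, and 0 passed in limma. Of all 19192 protein-coding genes, 10958 had a negative slope. Genes of a list can move together on the same arrays, so their signs are not independent. The median SD of the list was 0.271, and 0.204 once the fitted slope was taken out. The chemokines Cxcl9, Cxcl10 and Ccl8, which interferon is known to induce, had SDs of 0.67, 0.55 and 0.76. Class II antigen presentation genes had 0 of 6 in the most variable 10%, with H2-Ab1 at 7.02 ± 0.23, H2-DMa at 6.57 ± 0.22 and H2-DMb1 at 6.10 ± 0.20 (SD, n = 7).

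Genes of subepithelial, PDGFRA-high fibroblasts had 9 of 13 members in the most variable 10%. By median absolute deviation, which gives single arrays less weight, it was 5. The mean of the list was highest on A5, at 7.98, and between 7.22 and 7.64 on the other 6. On A5, Bmp7 was at 9.01, the matrix glycoprotein Tnc at 10.52, the transcription factor Sox6 at 7.74 and the endothelin receptor Ednrb at 7.42, each the highest of the 7. Contractile genes were also highest there, with a list mean of 8.11 against 7.57 to 7.87 elsewhere, and the CD34-positive crypt-base and adventitial list was at 8.85 on A5 and 8.84 on A8, the lowest values of a range up to 9.14 on A3. On the epithelial mean, 12 of 13 subepithelial and 11 of 12 contractile genes had positive slopes, and 0 passed in limma. Positive slopes were found in 8234 of 19192 protein-coding genes. The part of the mix of fibroblasts in the sort was not tested.

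The acute-phase gene Saa3, serum amyloid A3, was at 8.996 on A8 and between 6.31 and 7.54 on the others. Hp, haptoglobin, was also highest on A8, at 7.004 against 5.98 to 6.65, while Ptgs2, cyclooxygenase 2, lay between 9.99 and 10.78 with a median of 10.45. The mesothelial list, whose mean ranged from 5.10 on A1 to 6.07 on A4, had 6 of 7 members in the most variable 10%. Its slopes on the epithelial mean were negative in 7 of 7, with 0 passing in limma, where 10958 of 19192 protein-coding slopes were negative. Upk3b was at 6.78 on A4 and 6.71 on A2 and between 5.73 and 6.38 on the rest. Once the fitted epithelial slope was taken out, the largest SDs among protein-coding genes were those of Cyp2f2 (1.40), Il1r2 (1.28), Clca1 (1.25), Car1 (1.195), Sult1e1 (1.09) and Il13ra2 (1.08), the decoy receptor for interleukin 13, which ranged from 5.05 on A5 to 7.82 on A1.

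**Figure D5:**
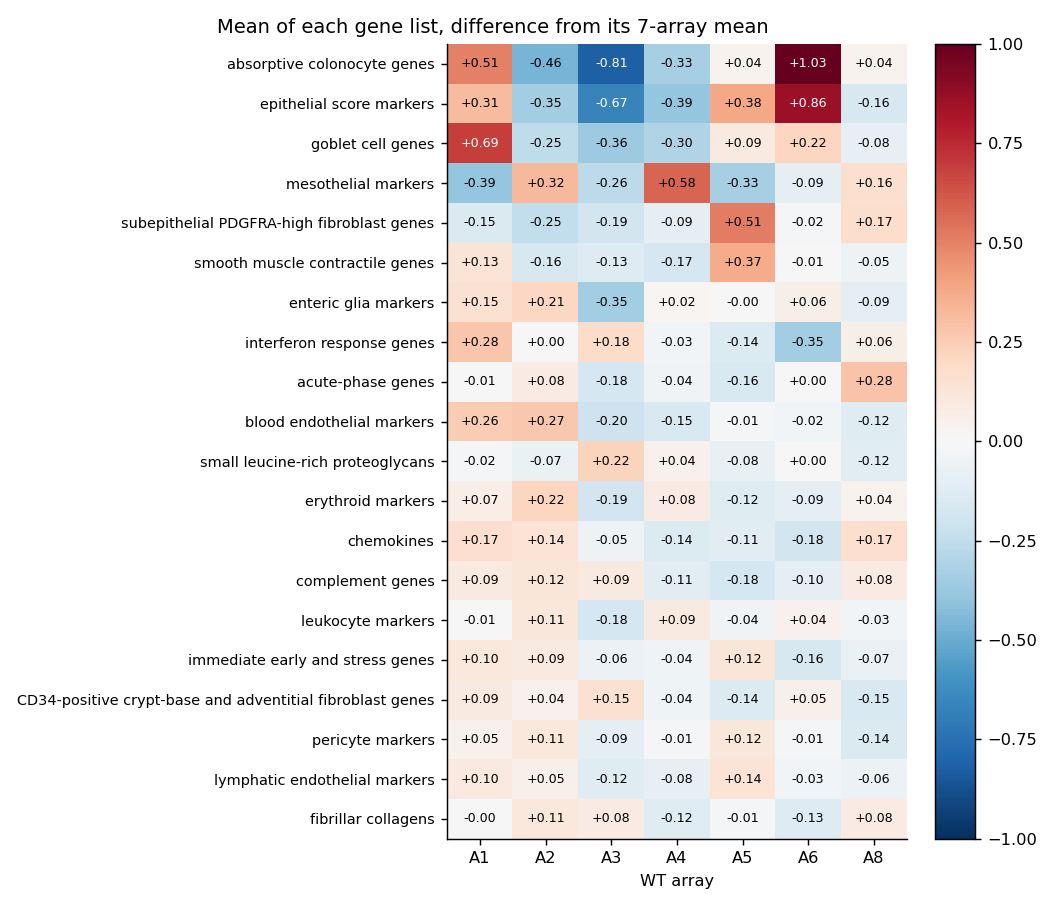
Mean RMA log2 level of each gene list on each WT array, as the difference from the mean of the 7 arrays (colour and printed value, log2 units), for lists whose means had an SD of at least 0.1. The list of X-inactivation and Y-linked genes, with an SD of 0.44, is left out. Colonocyte genes reach 1.03 on A6 and -0.81 on A3, goblet genes 0.69 on A1, mesothelial markers 0.58 on A4 and subepithelial fibroblast genes 0.51 on A5.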

How the data were processed

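The deposited values are log2 levels that the authors made with RMA, per the submitters' processing notes; the sources used here do not name the software version or genome build. RNA was extracted from sorted cells, amplified with a 3′ IVT pico kit and hybridised to the Affymetrix Mouse Transcriptome Array 1.0, per the labels' protocols. RMA equalises the distributions of the arrays, so a shift shared by most genes is not visible. Of 72688 probe sets, 6732 controls were set aside; of 65956 transcript clusters, 31221 had 1 gene here, 1529 had several and were not named, and 33206 had none in the annotation used. The brightest probe set stood for each of 364 genes with several, which gave 30748 genes, 19192 of them protein-coding in RefSeq. There were 0 table columns without a sample and 0 identical pairs of arrays. Arrays give no read depth; their number, 7, limits the precision.

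Slopes on the mean of the 16 epithelial markers were fitted with limma 3.58.1 in R 4.3.3 (lmFit, eBayes without trend) over all genes, with Benjamini-Hochberg adjustment at 0.05, after a test on simulated data. Tables and plots used Python 3.11.15, pandas 2.3.3 and matplotlib 3.10.9. Genes named were the 15 brightest, 15 most variable protein-coding genes and 5 least variable of the brightest 5%, the top 3 of each matrix, signalling, receptor and transcription factor list, the top 2 of each list of another cell type, the 3 most variable of each cell state list, the 10 largest called slopes, and all general fibroblast, sorting and sex-linked genes; further genes were named after their values were seen. The members and lists were chosen with earlier results of these data known. Alternatives changed the genes fitted, centring, marker summary, eBayes settings, probe set rule, arrays and measure of spread.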

Additional observations from a re-analysis of the deposited data

Results flagged for a closer look

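Over 166 genes and 53 list means, 9 had an array at the edge of the 7 WT values whose gap to its nearest neighbour was over 0.568 of the whole range (Dixon's 95% limit for 7 samples); chance gives about 1 in 20. Ogn, the proteoglycan osteoglycin, was at 10.89 on A2, with the next array at 11.27. Bmp4 was at 9.79 on A2, with the next at 10.40. Vegfd was at 9.07 on A5, with the next at 9.92. Hoxa11 was at 6.77 on A1, with the next at 7.13. Hspa1a was highest on A5, at 9.52, with the next at 8.81. Among list means, the enteroendocrine genes were lowest on A3 (4.68, next 4.84) and the Wnt receptors lowest on A8 (6.87, next 6.96). The BMP ligands and antagonists (7.91, next 7.81) and the Notch receptors and neuropilins (7.27, next 7.15) were highest on A5. Array A5 held 4 of the 9 and A2 held 2.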

How the results depend on the processing

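The count of 62 genes with a called slope came to 734 when all 24 arrays were fitted with a genotype term (60 of the 62 among them) and to 892 in the 17 other arrays, a fit added after the data were seen. It was 4 without the 2 arrays farthest from the median, all among the 62, and ran from 11 to 62 when each WT array was left out in turn; the counts without A6, A3, A2 and A4 are given with the result. It lay between 52 and 66 for fitting only genes above the median level, median centring, the median of the markers, Epcam alone, limma with trend and robust settings, the mean of probe sets and the brightest probe set over 24 arrays. The median of the markers, and leaving out A2 or A4, each gave 1 gene that fell, the 24 arrays gave 225 and the 17 other arrays 529, where the fit as reported had 0. The subepithelial count in the most variable 10% was 5 rather than 9 by median absolute deviation; the cause was not tested. Counts of matrix genes, ligands, receptors and transcription factors in the brightest 10% stayed within 1.5 times under the alternatives run. Slopes were refitted for the 10 genes with the largest called slopes only. Of these refits, 127 kept their direction and side of the threshold, 43 lost the call and none reversed. These genes were picked for large positive slopes and most refits used the same arrays, so a reversal was unlikely. No paired analysis was possible because the labels give the genotypes no shared replicate codes and no groups are compared. Signals near the negative controls limit what can be said of dim genes.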
